A study of Mus musculus with 6 samples.

Results

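The genes described here are 45 genes of DNA replication, chosen by symbol from a list of the parts of the licensing and fork machinery and of the enzymes that supply its nucleotides. All 45 were found among the 22219 genes measured, and all 45 were among the 17570 genes with enough reads to be tested. RNA was taken from whole testes of mice on day 10, in 3 libraries of conditional knockout mice (cKO), which lose Eif5 in germ cells, and 3 of control mice. The knockout was bred from mice with floxed Eif5 (Eif5fl/fl) and mice with a Stra8-Cre transgene, whose promoter is that of a gene of differentiating germ cells. The labels give no genotype for the controls, so the loss of Eif5 cannot be told apart from what the Cre or floxed alleles alone may do. Eif5 itself had 8548, 8982 and 9574 normalised read counts in cKO, against 11964, 10551 and 11187 in control (log2 fold change -0.31, limma adjusted p = 0.024), a call lost when cKO replicate 1 or 2 was left out (adjusted p = 0.133 and 0.0888). A normalised read count is the number of reads of a gene divided by the size factor of its library. The libraries held 32555443 to 48409550 reads in genes, of which 4.41% to 9.64% were mitochondrial. A gene is called lower or higher where its limma p, adjusted over all genes tested, was under 0.05.

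Each round of DNA replication starts at origins that the origin recognition complex (ORC) marks on the DNA. With the help of Cdc6 and Cdt1, ORC loads rings of the MCM2-7 helicase, a step called licensing that geminin blocks once DNA synthesis has begun. Cdc45 and the GINS complex then turn the ring into an active helicase, and polymerases, the sliding clamp PCNA and its loader RFC copy both strands behind it. Many of these genes are transcribed by E2F factors as a cell enters S phase. In the young testis spermatogonia divide by mitosis, germ cells that enter meiosis pass through a last round of replication, and Sertoli cells still divide.

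Replication genes were lower in cKO testes over most of the machinery. Of the 45 genes 29 were called lower (64.4%), where 10.4% of all genes tested were called lower. In limma 0 members were called higher, as also in edgeR and DESeq2, where limma called 9.63% of all genes tested higher, and 0 had a rise with an unadjusted limma p under 0.05. The median log2 fold change of the members was -0.36, against 0.01 for all genes tested, and 42 of the 45 values were below 0. All 3 cKO libraries lay below all 3 control libraries for 32 members, where 18.4% of all genes tested did so. A fall of at least 0.5 on the log2 scale was called for 14 members, where 5.92% of all genes were called with a fall of that size. The largest falls were in Rrm2 (-1.16), Orc1 (-0.99), Pole (-0.89), Lig1 (-0.81) and Cdc6 (-0.77). In RNA from a whole organ, fewer cells of a type and less RNA per cell cannot be told apart. Without cKO replicate 3 the number called lower was 17, and 15 of the 29 calls were kept whichever library was left out.

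**Figure D1:**
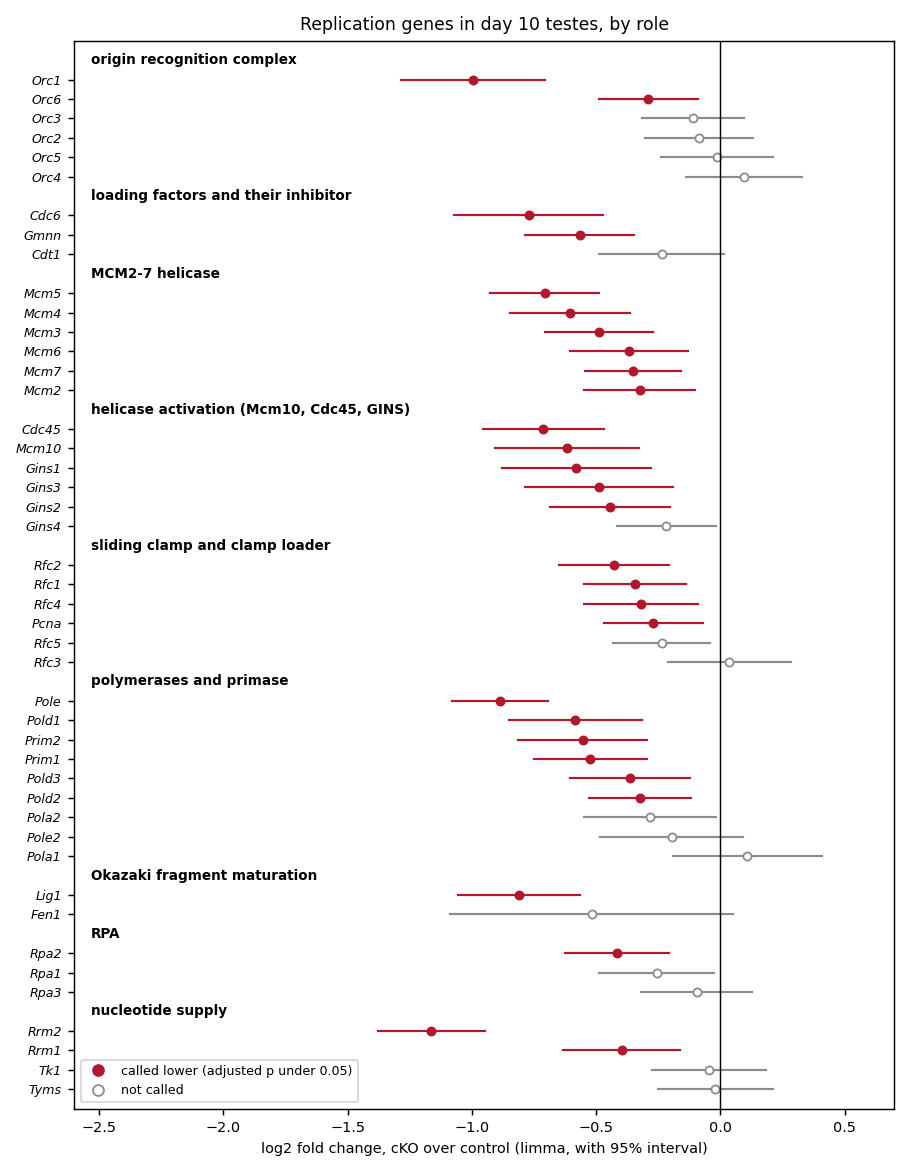
Log2 fold change of each of the 45 genes in cKO over control, grouped by role, with the 95% interval from limma (3 cKO and 3 control libraries). Filled red points are the 29 genes called lower and open grey points the 16 not called. Every MCM2-7 gene lies left of 0, while Orc2, Orc3, Orc4 and Orc5, Rfc3, Pola1, Tk1 and Tyms lie near it.

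Markers of germ cells moved with these genes, except those of undifferentiated spermatogonia. Of 18 meiotic prophase markers 18 were lower, and their summed level was 13820 to 16528 normalised read counts in cKO and 34227 to 38415 in control. Of 10 markers shared by germ cells 9 were lower (25713 to 27536 in cKO, 37961 to 46895 in control), and of 10 markers of differentiating spermatogonia 8 were lower (21245 to 25075 in cKO, 35606 to 38729 in control). Markers of undifferentiated spermatogonia had 5 of 14 higher, with summed levels that overlapped (16453 to 17972 in cKO, 15277 to 17222 in control). Of 16 Sertoli cell markers 9 were higher and 1 lower (526482 to 592850 in cKO, 339998 to 471416 in control), and of 10 Leydig cell markers 8 were higher (41550 to 49378 in cKO, 27430 to 37490 in control). Of 9 macrophage markers 6 were higher (8196 to 9409 in cKO, 6273 to 7979 in control), and of 7 erythroid markers 2 were higher (4736 to 11800 in cKO, 3593 to 4638 in control). Of 8 markers of peritubular myoid cells 2 were lower (35136 to 36027 in cKO, 37027 to 38935 in control), and of 8 endothelial markers 1 was higher and 1 lower (9581 to 10395 in cKO, 7921 to 9819 in control). The endothelial counts were near the shares of all genes tested, 10.4% called lower and 9.63% called higher. No marker in these lists was at 0 in all 6 libraries. The part of a change in cell makeup in the falls of the replication genes was not tested.

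The promoters of several members carry the E2F motif, and those shown here belong to the called members with such a motif and the largest falls. RefSeq promoter windows (GRCm38.p6), from 250 bases before to 50 after a gene's start, were found for 37 of the 45 members. The letters TTGGCGC or TTCGCGC were searched on both strands, and the other strand of the first, GCGCCAA, overlaps a CCAAT box where a T follows. Matches are in capitals below. For Orc1, Mcm5 and Mcm6 the 250 bases before the start are shown (chr4:108579204-108579453, plus strand; chr8:75109259-75109508, plus strand; chr1:128359706-128359955, minus strand). For Lig1, Mcm3 and Mcm7, whose first match in the window shown lies after the start, 30 bases around it are shown (chr7:13278840-13278869, plus strand; chr1:20820263-20820292, minus strand; chr5:138171849-138171878, minus strand).
Orc1: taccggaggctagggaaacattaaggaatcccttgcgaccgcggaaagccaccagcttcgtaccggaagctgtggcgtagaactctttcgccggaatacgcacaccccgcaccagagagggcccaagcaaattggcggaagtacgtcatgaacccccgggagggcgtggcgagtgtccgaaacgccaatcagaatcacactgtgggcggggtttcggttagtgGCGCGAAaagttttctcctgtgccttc
Mcm5: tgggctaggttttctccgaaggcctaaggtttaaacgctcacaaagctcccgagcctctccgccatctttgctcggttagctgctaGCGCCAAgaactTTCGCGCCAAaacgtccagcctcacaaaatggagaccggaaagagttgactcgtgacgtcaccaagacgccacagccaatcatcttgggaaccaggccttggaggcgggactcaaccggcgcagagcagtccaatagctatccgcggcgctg
Mcm6: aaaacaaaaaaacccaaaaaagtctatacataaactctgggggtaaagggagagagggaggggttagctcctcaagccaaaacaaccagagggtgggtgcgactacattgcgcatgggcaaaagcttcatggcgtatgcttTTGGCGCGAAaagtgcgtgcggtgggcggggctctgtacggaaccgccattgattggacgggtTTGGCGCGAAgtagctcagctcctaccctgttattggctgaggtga
Lig1: ccgccaaagtgcGCGCGAAatctgtgtggc
Mcm3: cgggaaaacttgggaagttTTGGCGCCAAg
Mcm7: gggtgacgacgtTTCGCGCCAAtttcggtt
Mcm6 has 2 pairs of matches that overlap on opposite strands in this stretch, and Mcm5, Mcm3 and Mcm7 have a pair of the same kind. In the Mcm7 stretch the match on the other strand runs into a CCAAT box.

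The E2F motif was found for 13 of 37 members (35.1%), against 7.68% of the 12247 genes tested that had a promoter window and 4.47% of all 27025 genes with one. It did not separate the members by their call: 7 of 22 members called lower had a match (31.8%), and 6 of 15 members not called (40.0%), among them Pola1 and Rfc3. The CCAAT box (CCAAT, both strands) was found for 17 of 22 members called lower (77.3%) and 6 of 15 not called (40.0%), against 42.2% of genes tested and 41.1% of all genes. It was found for 22 of 27 mitosis genes (81.5%). The median log2 fold change of the members called lower was -0.42 with the box and -0.58 without it. Over the 37 members these medians were -0.35 and -0.26. Whether the box goes with the fall was not tested. The CHR element (TTTGAA, both strands), known from promoters of late cell cycle genes, was found for 5 of 37 members (13.5%), a share close to the 14.3% of genes tested (20.2% of all genes), and for 20 of 27 mitosis genes (74.1%). A match gives letters in a window and no evidence of binding. The lack of a match to these exact letters does not show that a site is absent.

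Within the origin recognition complex the fall was uneven. Orc1, the subunit whose level changes through the cell cycle, had 285, 313 and 275 normalised read counts in cKO, against 626, 623 and 503 in control. The groups were far apart, with a log2 fold change of -0.99 ± 0.139 (SE, limma adjusted p = 4.33e-05). Orc6, a small subunit, also fell (1383, 1402 and 1426 in cKO, 1626, 1778 and 1749 in control), with a log2 fold change of -0.29 (limma adjusted p = 0.0365). The core subunits Orc2 (-0.09, 95% interval -0.30 to 0.13), Orc3 (-0.11, -0.31 to 0.09), Orc4 (0.09, -0.14 to 0.33) and Orc5 (-0.01, -0.24 to 0.21) were not called, with overlapping groups. Orc2, Orc3 and Orc5 were called lower where counts were scaled to Sertoli cell markers (-0.49, -0.52 and -0.42). Under that scaling the median of all genes was itself -0.40. The call of Orc6 ended without cKO replicate 1, 2 or 3 or control replicate 2 or 3 (adjusted p = 0.0719 to 0.121). Orc1 shares 10.8% of its exonic bases with a transcript on the opposite strand and Orc2 shares 29.8% with Nif3l1, so part of their reads is uncertain where strand was not used.

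The loading factor gene Cdc6 and the licensing inhibitor gene Gmnn, which encodes geminin, both fell. Cdc6 had 331, 318 and 298 normalised read counts in cKO, against 655, 504 and 476 in control (log2 fold change -0.77, SE 0.144, limma adjusted p = 0.000827). Gmnn had 1094, 1166 and 1027 in cKO, against 1709, 1736 and 1438 in control (-0.57, SE 0.106, limma adjusted p = 0.000818). Neither gene had overlapping groups. Cdt1, the second loading factor and the target of geminin, had 1171, 1142 and 834 in cKO, against 1189, 1236 and 1243 in control. It was not called (-0.24, 95% interval -0.49 to 0.02, limma adjusted p = 0.178): cKO replicates 1 and 2 lay just under the controls and cKO replicate 3 well below them.

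All 6 genes of the MCM2-7 helicase fell, by log2 fold changes of -0.33 to -0.71. Mcm5 had the largest fall, with 2026, 2252 and 1779 normalised read counts in cKO, against 3717, 3164 and 3013 in control (-0.71, SE 0.106, limma adjusted p = 9.45e-05). Mcm4 had 1014, 1147 and 1037 in cKO, against 1950, 1526 and 1426 in control (-0.60, SE 0.116, limma adjusted p = 0.00103). In both genes the lowest control library stood clear of the highest cKO library. Mcm3 (-0.49), Mcm6 (-0.37), Mcm7 (-0.35) and Mcm2 (-0.33) fell less. Mcm6 was the helicase gene with overlapping groups (3432, 3689 and 2811 in cKO, 4924, 4264 and 3646 in control). The call of Mcm2 ended without cKO replicate 1, 2 or 3 or control replicate 1 (adjusted p = 0.0506 to 0.186), that of Mcm6 without cKO replicate 1 or 3 or control replicate 1 or 2 (0.0509 to 0.183) and that of Mcm7 without cKO replicate 3 (0.0902).

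Of the genes that turn the loaded ring into a moving helicase 5 of 6 were called lower (median log2 fold change -0.53). Cdc45, which joins the helicase at origin firing, had 1115, 1017 and 847 normalised read counts in cKO, against 1833, 1579 and 1468 in control (log2 fold change -0.71, SE 0.117, limma adjusted p = 0.000242). Mcm10, which acts at the start of unwinding, had 392, 410 and 422 in cKO, against 733, 653 and 512 in control (-0.62, SE 0.139, limma adjusted p = 0.0039). Gins1, a subunit of the GINS complex, had 369, 385 and 371 in cKO, against 682, 562 and 461 in control (-0.58, SE 0.144, limma adjusted p = 0.00739). The cKO libraries lay close together for Mcm10 and Gins1, while the controls were spread. Of the other GINS subunits Gins3 (-0.49) and Gins2 (-0.44) fell, and Gins4 was not called (-0.22, 95% interval -0.42 to -0.02, limma adjusted p = 0.114), though its groups did not overlap and it was called lower with library totals (-0.30, adjusted p = 0.0494). The call of Gins2 ended without control replicate 2 (adjusted p = 0.0538) and that of Gins3 without cKO replicate 3 or control replicate 1 or 3 (0.0621 to 0.117). Gins2 shares 67.3% of its exonic bases with Gse1 on the opposite strand, so its value is uncertain where strand was not used.

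Of the sliding clamp and its loader 4 of 6 genes were called lower (median log2 fold change -0.30). Pcna, the clamp that holds polymerases on DNA, had 2775, 2971 and 2674 normalised read counts in cKO, against 3719, 3079 and 3385 in control (log2 fold change -0.27, SE 0.0957, limma adjusted p = 0.0499). That value is at the edge of the threshold, and Pcna has pseudogenes that may share its reads. Rfc2, a small subunit of the clamp loader, had the largest fall of this group, with 1618, 1677 and 1326 in cKO, against 2159, 2167 and 1879 in control (-0.43, SE 0.107, limma adjusted p = 0.00758). The large subunit gene Rfc1 (-0.34) and Rfc4 (-0.32) fell too. Rfc5 was not called (-0.24, limma adjusted p = 0.0787), but was called lower with DESeq2 (adjusted p = 0.0476) and with library totals (0.0347). Rfc3 was at 751, 895 and 912 in cKO, against 917, 832 and 746 in control, with interleaved libraries (0.04, 95% interval -0.21 to 0.28). It read -0.05 with library totals and -0.37, called lower, with the Sertoli scaling, where the median of all genes was -0.40. The call of Pcna ended without cKO replicate 1, 2 or 3 or control replicate 1 or 3 (adjusted p = 0.0787 to 0.186), with edgeR (0.0503), with a pseudocount of 0.5 (0.0521) and with no filter (0.0571). Those of the loader genes ended for Rfc1 without cKO replicate 1 or control replicate 1 (0.105 and 0.0614), for Rfc2 without cKO replicate 3 (0.0683), and for Rfc4 without any library but cKO replicate 1 (0.0672 to 0.255) and with no filter (0.0511). Rfc2 shares 15.1% of its exonic bases with Lat2, Rfc4 12.7% with Eif4a2 and Rfc5 10.7% with Wsb2, each on the opposite strand.

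Among the polymerases the catalytic subunit of the leading strand enzyme fell most. Pole, which encodes it, had 2050, 2090 and 2027 normalised read counts in cKO, against 4160, 3529 and 3739 in control (log2 fold change -0.89, SE 0.0929, limma adjusted p = 1.5e-06). The 3 cKO values were within a narrow band far below the controls. Its partner Pole2 had 351, 345 and 389 in cKO, against 464, 393 and 390 in control, and was not called (-0.20, 95% interval -0.48 to 0.09). For the lagging strand enzyme, the catalytic subunit gene Pold1 had 1849, 1931 and 1408 in cKO, against 2887, 2832 and 2077 in control (-0.58, SE 0.129, limma adjusted p = 0.0033). The accessory subunit genes Pold3 (-0.36) and Pold2 (-0.32) fell less. In the complex that starts each new strand, both primase genes fell: Prim1 had 841, 795 and 819 in cKO, against 1325, 1076 and 1143 in control (-0.52, SE 0.11, limma adjusted p = 0.00223). Prim2 had 588, 740 and 606 in cKO, against 1085, 912 and 848 in control (-0.56, SE 0.126, limma adjusted p = 0.00408). The polymerase genes of the same complex were not called: Pola2 was at -0.28 (95% interval -0.55 to -0.02), and the X-linked Pola1 was at 0.11 (95% interval -0.19 to 0.41). With the Sertoli scaling, where the median of all genes was -0.40, Pola1 was at -0.30. The call of Pold2 ended without cKO replicate 2 or 3 or control replicate 1 (adjusted p = 0.0543 to 0.113) and that of Pold3 without cKO replicate 1 or 3 or control replicate 1 or 2 (0.105 to 0.123).

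Lig1, the ligase that joins Okazaki fragments, fell clearly, with 1375, 1578 and 1124 normalised read counts in cKO, against 2668, 2287 and 2162 in control (log2 fold change -0.81, SE 0.118, limma adjusted p = 6.76e-05). Fen1, the nuclease that trims these fragments, was listed at 82.1, 59.4 and 43.6 in cKO, against 97.6, 89.3 and 74.1 in control, the lowest level of any member. It was not called (-0.52, 95% interval -1.09 to 0.05, limma adjusted p = 0.192). In GENCODE M21 the transcript Gm10143 on the opposite strand covers 78.8% of the exonic bases of Fen1, so its level is uncertain.

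Of the single-strand binding complex RPA, Rpa2 fell, with 2717, 2889 and 2428 normalised read counts in cKO, against 3792, 3777 and 3162 in control (log2 fold change -0.42, SE 0.1, limma adjusted p = 0.00618). Without cKO replicate 3 it was not called (adjusted p = 0.051). Rpa1, the large subunit gene, was not called (-0.26, 95% interval -0.49 to -0.03, limma adjusted p = 0.108), although all cKO libraries (1260 to 1295) were below the controls (1345 to 1820), and it was called without control replicate 2 (adjusted p = 0.0435) and with library totals (0.049). Rpa3 was at -0.10 (95% interval -0.32 to 0.13).

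Nucleotide supply held both the largest fall and some of the smallest differences of the 45 genes. Rrm2, the small subunit of ribonucleotide reductase that is made in S phase, had 835, 845 and 779 normalised read counts in cKO, against 2038, 1722 and 1764 in control. Every cKO library was under every control by a wide margin, for a log2 fold change of -1.16 ± 0.104 (SE, limma adjusted p = 1.91e-07). Rrm1, the large subunit, fell less (2259, 2399 and 1893 in cKO, 3402, 2581 and 2671 in control; -0.40, limma adjusted p = 0.0174). Tk1, the thymidine kinase of the salvage route, had 714, 773 and 742 in cKO, against 781, 794 and 727 in control (-0.05, 95% interval -0.28 to 0.18). Tyms, the thymidylate synthase, had 987, 1075 and 1082 in cKO, against 1188, 1080 and 934 in control (-0.02, 95% interval -0.25 to 0.21). Both were called lower with the Sertoli scaling (-0.45 and -0.43), under which the median of all genes was -0.40. The call of Rrm1 ended without cKO replicate 3 or control replicate 1 (adjusted p = 0.117 and 0.0772).

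**Figure D2:**
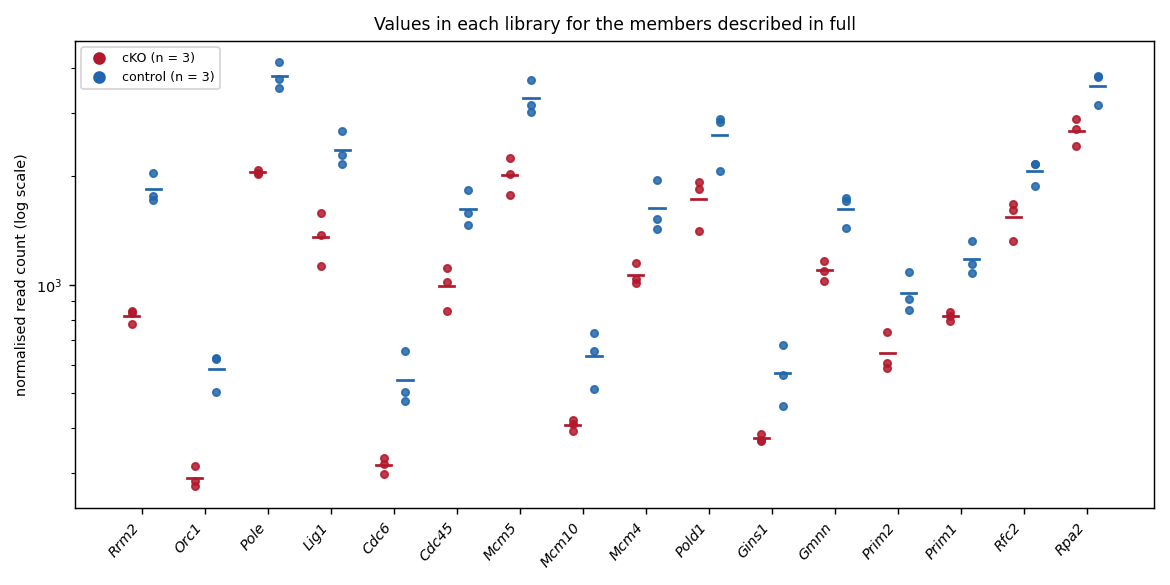
Normalised read counts (log scale) in each library for the 16 members with the largest falls of their group or a called fall of at least 0.5 on the log2 scale, with cKO in red left of control in blue and bars at the means (n = 3 each). In each gene shown, all 3 cKO points lie below all 3 control points.

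Ratios between members within a library do not depend on the scaling of the libraries. The ratios of 8 pairs were chosen after the values had been seen, and 3 libraries against 3 cannot give an exact 2-sided permutation p under 0.1. The ratio of Rrm2 to Rrm1 was 0.370, 0.352 and 0.412 in cKO, against 0.599, 0.667 and 0.660 in control (exact permutation p = 0.1, adjusted over the 8 pairs 0.114). That of Orc1 to Orc2 was 0.166, 0.150 and 0.140 in cKO, against 0.273, 0.324 and 0.263 in control. That of Pole to Pole2 was 5.84, 6.05 and 5.21 in cKO, against 8.97, 8.98 and 9.58 in control. In these pairs the first gene thus had less RNA relative to its partner in every cKO library. The ratio of Mcm5 to Mcm2, of the same ring, was 1.15, 1.25 and 1.17 in cKO, against 1.53, 1.57 and 1.56 in control. As the pairs were picked with the values known, a count of pairs with separate groups is no test. The adjustment over the 8 pairs does not allow for that choice, and no share over other pairs was taken. Groups did not overlap for 7 of the 8 pairs. The exception was Gmnn to Cdt1, with 0.934, 1.02 and 1.23 in cKO, against 1.44, 1.41 and 1.16 in control (exact permutation p = 0.2).

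**Figure D3:**
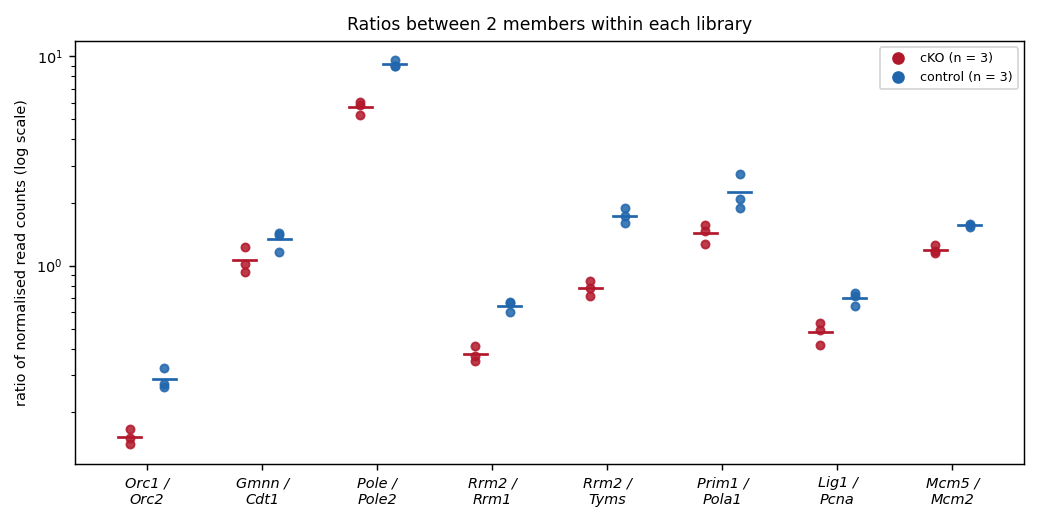
Ratio of the normalised read counts of 2 members (log scale) in each library, with cKO in red left of control in blue and bars at the means (n = 3 each). The pairs were chosen after the values had been seen. The groups lie apart for 7 pairs and overlap for Gmnn to Cdt1.

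Levels were compared between genes per kilobase of the longest protein-coding transcript in GENCODE M21. Pcna was the most abundant member in both groups, with 1849 ± 99.6 normalised read counts per kb in cKO and 2236 ± 211 in control (SD, n = 3 each). Among the helicase genes, whose products form a ring with equal parts, Mcm7 had the highest level (1152 ± 87.4 per kb in cKO, 1468 ± 74.2 in control) and Mcm4 the lowest (297 ± 19.8 per kb in cKO, 455 ± 77.4 in control). The RPA genes Rpa2 (1477 ± 128 per kb in cKO, 1973 ± 198 in control) and Rpa3 (1409 ± 121 per kb in cKO, 1503 ± 52.5 in control) stood above Rpa1 (252 ± 3.44 per kb in cKO, 303 ± 49.0 in control). Cdc6 (68.4 ± 3.58 per kb in cKO, 118 ± 20.9 in control), Mcm10 (83.7 ± 3.11 per kb in cKO, 130 ± 22.9 in control) and Orc1 (96.5 ± 6.58 per kb in cKO, 194 ± 23.4 in control) were among the least abundant. So were Fen1 (26.0 ± 8.16 per kb in cKO, 36.7 ± 5.02 in control) and Pola1 (108 ± 8.71 per kb in cKO, 101 ± 20.7 in control), which were not called. Which transcripts are present was not measured, so these levels shift with the length taken.

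Other genes of replication, in 6 lists outside the 45, were also examined. Over all of them 37 of 79 were called lower and 1 higher. Of 13 genes of origin firing 10 were lower, led by Ticrr (-1.04), a factor that brings Cdc45 to origins, Recql4 (-0.74) and the kinase gene Cdc7 (-0.65). Of 8 genes of fork protection and alternative clamp loaders 7 were lower (median -0.78): the checkpoint mediator gene Clspn had 787 ± 30.2 normalised read counts in cKO and 1590 ± 222 in control (SD, n = 3 each; 95% interval of the log2 fold change -1.24 to -0.77, limma adjusted p = 3.24e-06). Dscc1 (-0.96) and Atad5 (-0.89), of alternative clamp loaders, fell as well. Of 9 genes of chromatin assembly behind the fork 6 were lower, among them the histone chaperone genes Nasp (-0.91) and Asf1b (-0.84) and Uhrf1 (-0.75), which keeps DNA methylation on new strands. Of 9 further fork enzymes and subunits 1 was lower (Dna2, -0.51), a share near the 10.4% of all genes tested. Of 18 further nucleotide enzymes 4 were lower, among them Dck (-0.56) and Dctpp1 (-0.42). Differences between these lists were not tested. The call of Dna2 ended without cKO replicate 3 or control replicate 1 (adjusted p = 0.121 and 0.093). That of Dctpp1 ended without cKO replicate 3 or control replicate 2 (0.0653 and 0.0574).

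Of 22 genes of E2F factors, their partners and S-phase cyclins 9 were lower and 1 higher. Of all genes tested 10.4% were called lower and 9.63% higher. Ccne2, the cyclin E2 gene, had 718 ± 153 normalised read counts in cKO and 1911 ± 345 in control (SD, n = 3 each; log2 fold change -1.42, limma adjusted p = 1.04e-06). E2f2 (-1.32) and Ccne1 (-0.89) fell too. Rbl2, which encodes the pocket protein p130 that holds cell cycle genes silent in resting cells, was higher (0.30, limma adjusted p = 0.0265). Its call ended without cKO replicate 1, 2 or 3 or control replicate 2 (adjusted p = 0.0568 to 0.139) and with library totals (0.21, adjusted p = 0.161), and its sign turned with the Sertoli scaling (-0.11). The factor genes E2f1 (-0.25, limma adjusted p = 0.0955) and E2f3 (-0.17) and the cyclin gene Ccna2 (-0.20) were not called, although for E2f1 and Ccna2 all cKO libraries lay below all controls.

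Genes of mitosis, the next step of the cycle, gave counts of the same kind. Of 32 such genes 26 were lower, with a median of -0.53, where 10.4% of all genes tested were called lower and 9.63% higher. By limma, edgeR or DESeq2 0 were called higher, nor had any a rise with an unadjusted limma p under 0.05. Cdk1 (0.18) and Ube2c (0.07) were above 0 and not called. The cKO libraries of Cdk1 (1554 to 1654 normalised read counts) all lay above its controls (1349 to 1438). Bub1 (-0.95), a spindle checkpoint kinase gene, Top2a (-0.86), a topoisomerase gene, and Mki67 (-0.80), a gene of dividing cells, had the largest falls. Whether the replication and mitosis genes differ in their fall was not tested.

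**Figure D4:**
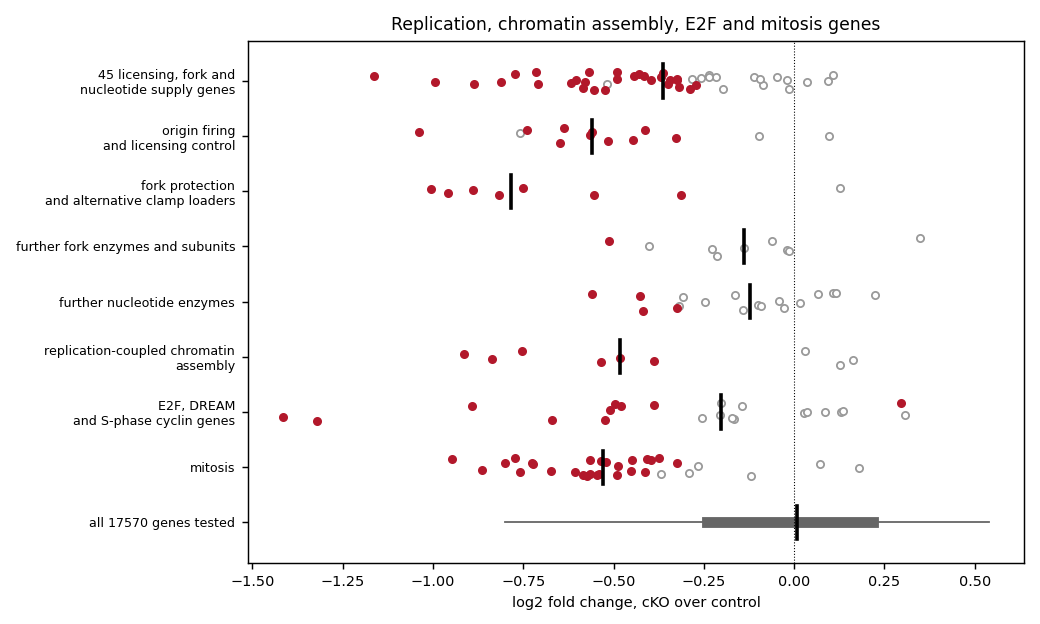
Log2 fold changes in cKO over control of the 45 genes, of 6 further lists of replication genes and of 32 mitosis genes, with called genes filled, genes not called open and black bars at the medians. The lowest row gives all 17570 genes tested (thick bar, 25th to 75th percentile; thin line, 5th to 95th; black bar, median 0.01), and the lists of fork protection (-0.78), origin firing (-0.56) and mitosis (-0.53) have the lowest medians.

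The libraries of a group were not alike in these genes. The summed level of the 45 members was 58747, 61549 and 54698 normalised read counts in cKO replicates 1 to 3, against 84537, 75891 and 71415 in control replicates 1 to 3. Control replicate 1 was the highest control library for 35 members, and cKO replicate 3 was the lowest cKO library for 29. Control replicate 1 also had the highest summed level of germ cell markers (46895) and the lowest of Sertoli cell markers (339998). With library totals as the scaling 32 members were lower (median -0.45, all genes -0.08), and with scaling to Sertoli cell markers 43 were lower (median -0.77, all genes -0.40). With the deposited factors 3521 of the 17570 genes tested were called in either direction, with library totals 3302 and with the Sertoli scaling 8329. Over all genes, those called lower alone were not counted with library totals or Sertoli markers. In all 3 scalings 0 members were called higher. Library totals and Sertoli markers both moved the median of all genes down, so these scalings are no check on rises.

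**Figure D5:**
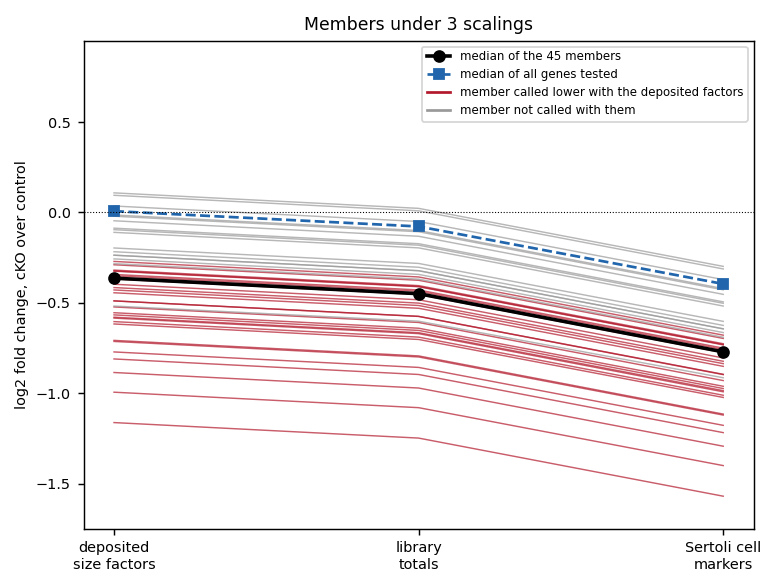
Log2 fold change of each member in cKO over control under 3 scalings, in red where called lower with the deposited factors and in grey where not. The median of the members (black circles) is -0.36, -0.45 and -0.77, and that of all genes tested (blue squares) is 0.01, -0.08 and -0.40.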

How the data were processed

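RNA from whole testes was measured in 6 libraries, and groups and replicate numbers came from the sample titles. Per the submitters' processing notes StringTie 1.3.1 and RSEM were used, with no role given. What aligned and counted the reads, on which build and with which strand setting, is not given in the sources used here. In the single table that the authors deposited, the header speaks of raw counts, but the values are a normalised signal: in every column 100% were whole multiples of 1 step (tolerance 1e-06), and each step's inverse equalled the median-of-ratios size factor (0.825 to 1.35) of the recovered reads. Recovered totals were 32555443 to 48409550 reads. Of recovered counts of 1 to 20, 78.1% were even, so reads may not be independent units in the edgeR and DESeq2 fits. The cause of the even counts was not tested.

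limma 3.58.1 (R 4.3.3, trended prior, no covariate, 2-sided) was run on log2(value + 2), with Benjamini-Hochberg adjustment over the 17570 genes that passed edgeR's filterByExpr (minimum count 10). Fold changes on this scale understate the change of low genes. edgeR 4.0.16 (quasi-likelihood) and DESeq2 1.42.0 on the recovered reads, other pseudocounts, filters and scalings, a replicate block and leaving out each library were alternatives. The Sertoli scaling used the geometric mean of 16 markers. Scripts were tested on simulated counts. The members and lists were chosen with earlier results of these data known. Values in every library are given for members called with a log2 change of at least 0.5 and for the largest change of each role group, and the top 3 called genes are named from each other list, except 1 that is not reported here. Further genes that are no members were named after their values were seen. No pair of libraries was a duplicate (chi-square per degree of freedom 10.2 or more). By this value control replicate 3 lay nearer to cKO replicates 1 and 3 (32.3 and 32.1) than to control replicates 1 and 2 (52.9 and 57.5). Against cKO replicate 2 its value was 54.4. The cause was not tested. The labels do not say whether each library is a different animal, so the spread that p-values rest on may be technical.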

Additional observations from a re-analysis of the deposited data

How the results depend on the processing

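Of the 29 members called lower, 15 stayed called under every alternative tried, and the number called was 27 to 30 with other pseudocounts, filters, edgeR, DESeq2 and a replicate block. edgeR called 3432 genes in all and DESeq2 3908, against 3521 with limma. Leaving out 1 library gave 17 to 25 members lower, medians of -0.43 to -0.30 and 2213 to 3524 genes called in all, with 0 to 3 further replication genes higher. With library totals 0 further replication genes were higher. With the Sertoli scaling 43 members and 66 further replication genes were lower and 0 of the further genes higher, the members' median was -0.77, 8329 genes were called in all, and Orc4 (-0.31), Rfc3 (-0.37), Pola1 (-0.30) and Rbl2 (-0.11) changed sign, the median of all genes being -0.40. Rfc3 was -0.050 with library totals, and the median of all genes was -0.078 with library totals and -0.013 with no filter. Leaving out 1 library, Orc4 (-0.020 to 0.18), Orc5 (-0.040 to 0.0054), Rfc3 (-0.040 to 0.12), Pola1 (-0.065 to 0.23) and Tyms (-0.11 to 0.059) changed sign, none of them called. The cause of these shifts was not tested. Same-numbered libraries did not deviate together (correlations -0.04, 0.00 and 0.06). With 3 libraries per group these values cannot settle whether the numbers pair the samples. With the replicate block 28 members were lower (median -0.36), 38 further replication genes were lower and 1 higher, 26 mitosis genes were lower and 3306 genes were called in all. Pcna was not called with it (adjusted p = 0.0658).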
